A study of Solanum tuberosum with 6 samples.

Results

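Of 114281 genes in the deposited count table of potato leaves, 8 were expressed in every library of the cultivar Atlantic and were next to silent in every library of the cultivars KY130 and KY140. They were chosen by level. Each had an identifier of the Atlantic gene annotation, at least 30 CPM (counts scaled to a library of 1000000 counts) in each of 6 Atlantic libraries, and at most 5 counts in total over 12 libraries of KY130 and KY140. The levels in the 3 cultivars therefore chose the genes and are given as a description without a test. The leaves came from virus-free tissue culture seedlings, labelled wild type and grown on MS medium for 18 days with 16 h of light per day. Untreated seedlings of each cultivar were kept at 25°C (groups Atlantic, KY130 and KY140), and treated seedlings at −4°C for 12 h (CS-Atlantic, CS-KY130 and CS-KY140). Each group had 3 poly(A) RNA libraries, with totals of 11390279 to 12667043 counts in the Atlantic groups and 11047494 to 14971945 counts in the KY130 and KY140 groups. Genes with at least 1 count numbered 65796 to 74628 in the Atlantic libraries and 45305 to 72029 in those of KY130 and KY140. Within groups, the Pearson r of log2(CPM + 1) between libraries was 0.837 to 0.945. The treatment field of the labels gives 12°C for the treated groups where the sample titles give −4°C, and −4°C is used here. Each group is 1 record in the labels, and the rep numbers in the sample titles differ by cultivar and not by library. The methods of the study state 3 biological replicates for Atlantic and KY140 and do not describe KY130, so p-values measure the spread between these libraries.

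Cultivated potato is a tetraploid, and each chromosome is present in several homologous copies that can carry different alleles of a gene. Copies within a cultivar and between cultivars can differ in sequence, in expression, or by the presence or absence of the gene itself. Cultivars are propagated by tubers, so that such a set of copies is passed on unchanged. The identifiers belong to an annotation of Atlantic that names the chromosome, then a copy and then a gene number, as in Soltu.Atl.03_3G017850 for chromosome label 03, copy label 3 and gene number 17850. The reads of KY130 and KY140 were thus counted on the genes of another cultivar. Whether the same gene was expressed in them from a copy with a different sequence was not tested, because the files do not pair the copies of a gene. In bulk leaf RNA, fewer cells of a type and less RNA per cell cannot be told apart. The files do not pair identifiers with gene names, and the potato gene table of RefSeq, which uses other identifiers, holds 0 of the 114281, so that no function or sequence is given. For the same reason the leaf could not be checked by marker genes.

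The 8 genes had moderate levels for genes that met the 30 CPM minimum. In Atlantic leaves they had means over the 6 libraries from 43.1 to 107.3 CPM. Among the 3663 annotated genes with at least 30 CPM in each Atlantic library they ranked between 1067 and 3367 by mean CPM. Their median level was 66.8 CPM, against 73.8 CPM for the 3655 others, which reached 5591 CPM. Together the 8 genes made up 562.9 ± 72.7 CPM (SD, n = 3) in Atlantic and 526.6 ± 83.6 CPM (SD, n = 3) in CS-Atlantic.

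Soltu.Atl.03_3G017850 was the most abundant, with 122.9, 98.8 and 84.5 CPM in the untreated and 135.3, 85.8 and 116.6 CPM in the treated libraries (replicates 1, 2 and 3 in this order, here and for the genes that follow). Its 2 groups overlapped, with the lowest and the second lowest value on different sides. Soltu.Atl.04_2G002550 was at 104.3, 112.7 and 66.8 CPM in the untreated and 69.3, 66.4 and 68.9 CPM in the treated libraries. Its treated libraries lay within 3 CPM of each other, beside the lowest untreated one. Soltu.Atl.08_3G014060 was at 71.3, 116.4 and 68.7 CPM in the untreated and 65.2, 48.3 and 63.6 CPM in the treated libraries. It was the one gene of the 8 whose groups did not overlap, and library 2 held both its highest untreated and its lowest treated value. Soltu.Atl.03_3G011300 was at 62.0, 62.9 and 73.2 CPM in the untreated and 92.9, 59.96 and 59.8 CPM in the treated libraries, where library 1 stood above the others.

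Soltu.Atl.06_1G001710 was at 76.3, 74.8 and 50.7 CPM in the untreated and 82.5, 39.5 and 66.4 CPM in the treated libraries. The treated libraries enclosed all untreated ones. Soltu.Atl.02_3G032270 was at 55.0, 51.0 and 48.1 CPM in the untreated and 62.6, 52.3 and 88.6 CPM in the treated libraries. Its untreated values were close together, and one of them exceeded the lowest treated value. Soltu.Atl.05_4G001900 was at 31.1, 77.2 and 55.5 CPM in the untreated and 42.5, 39.5 and 39.2 CPM in the treated libraries. Its untreated libraries spread over both sides of the treated ones. Soltu.Atl.12_1G009210 was at 42.0, 40.7 and 41.7 CPM in the untreated and 49.7, 43.9 and 40.8 CPM in the treated libraries, the narrowest range of the 8 genes.

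**Figure D1:**
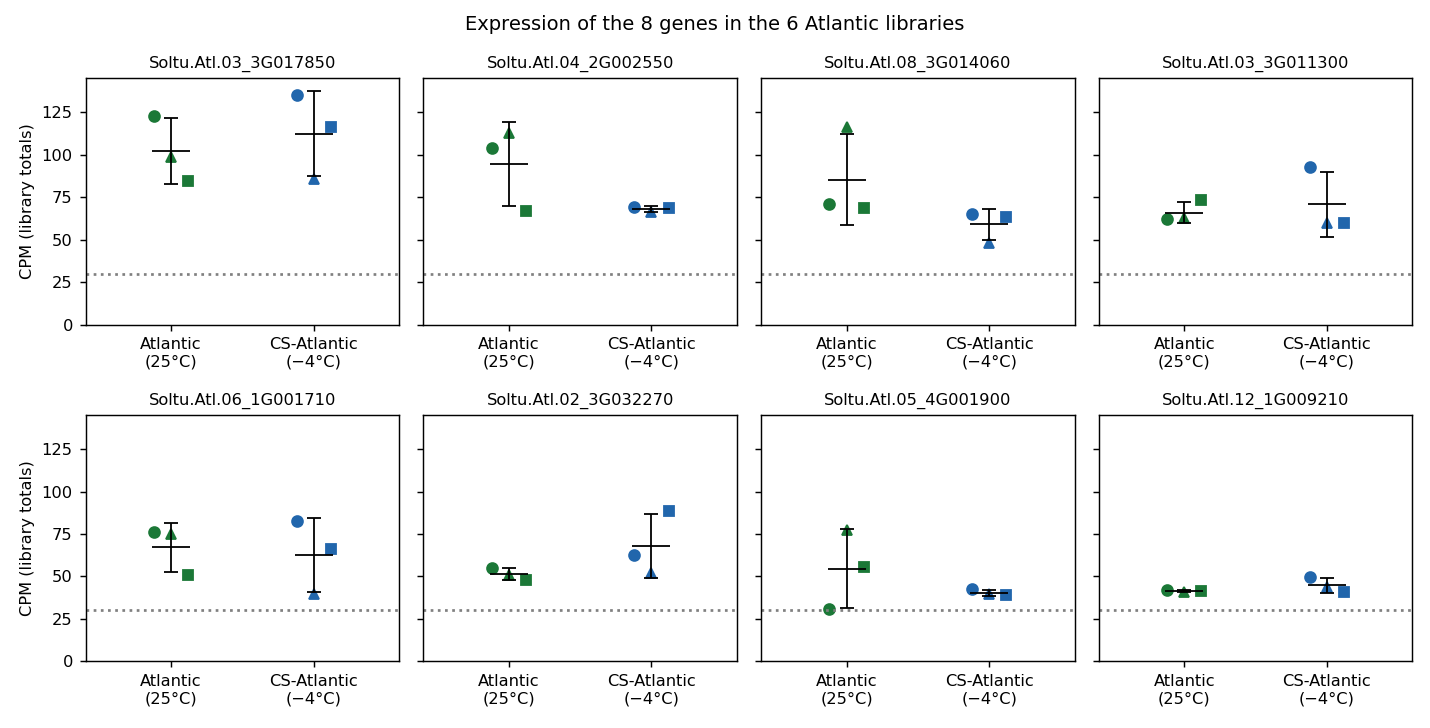
Expression of the 8 genes in the Atlantic libraries. The y axis is CPM scaled by library totals, the x axis gives the group, and each point is 1 library (circle 1, triangle 2, square 3), with the mean and SD of the 3 libraries in black and the 30 CPM minimum of the choice as a dotted line. All points lie between 31.1 and 135.3 CPM, and the groups overlap for all genes but Soltu.Atl.08_3G014060.

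In KY130 and KY140 the 8 genes together had 13 counts in 146676904, against 39523 counts in 72379975 in Atlantic. Of the 13 counts, 7 fell in KY130 and 6 in KY140 libraries. Of the 96 values of a gene in a KY130 or KY140 library, 85 were 0, 9 were 1 and 2 were 2 counts. Soltu.Atl.05_4G001900 had no count in the 12 libraries, while 364 to 978 counts were found in each Atlantic library. A floor of 3 counts over the 12 libraries corresponds to 0.0205 CPM, and against this floor the gene was at least 2343-fold higher in Atlantic. Intervals and floors here cover counting error only.

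The other 7 genes had 1 to 4 counts outside Atlantic. Soltu.Atl.02_3G032270 had the most, with 2 counts in KY140 library 1 and 1 count each in KY140 library 2 and CS-KY140 library 2. These counts were all in KY140, and KY130 had none. Soltu.Atl.12_1G009210 had 1 count in KY130 library 1 and 2 counts in KY130 library 2, and none in KY140. Soltu.Atl.03_3G017850 was the one gene counted in both cultivars, with 1 count in CS-KY130 library 1 and 1 in CS-KY140 library 1. Soltu.Atl.04_2G002550 had a single count, in CS-KY140 library 3. Soltu.Atl.08_3G014060, Soltu.Atl.03_3G011300 and Soltu.Atl.06_1G001710 had a single count each, in KY130 libraries 1, 2 and 3 in this order. Thus 4 genes had counts in KY130 alone, 2 in KY140 alone and 1 in both. The ratio of the CPM in Atlantic to that in the 12 other libraries was lowest for Soltu.Atl.12_1G009210, at 2106 (95% exact interval 720.03 to 10219), and highest for Soltu.Atl.04_2G002550, at 11970.4 (2148 to 472886). The rule capped the counts outside Atlantic, so these ratios describe the choice and are not ranked further.

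Such silence was rare among genes of this level. Of the 3663 annotated genes with at least 30 CPM in each Atlantic library, 1670 had over 10000 counts in the 12 KY130 and KY140 libraries and 1783 had 1001 to 10000. There were 162 genes with 101 to 1000 counts, 31 with 21 to 100 and 9 with 6 to 20, before the 7 with 1 to 5 and the 1 with none. The 8 genes are therefore the end of a thin tail without a gap below it. The same limit of 5 counts over the 6 libraries of 1 cultivar is looser, and the genes that meet it include the 8 by construction. At most 5 counts over 6 libraries were found for 118 of the 3663 genes in KY130 and for 81 in KY140, both set against the same Atlantic libraries. Of the 118 genes, 72 had a mean of at least 30 CPM in KY140, and of the 81 genes, 54 had such a mean in KY130.

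**Figure D2:**
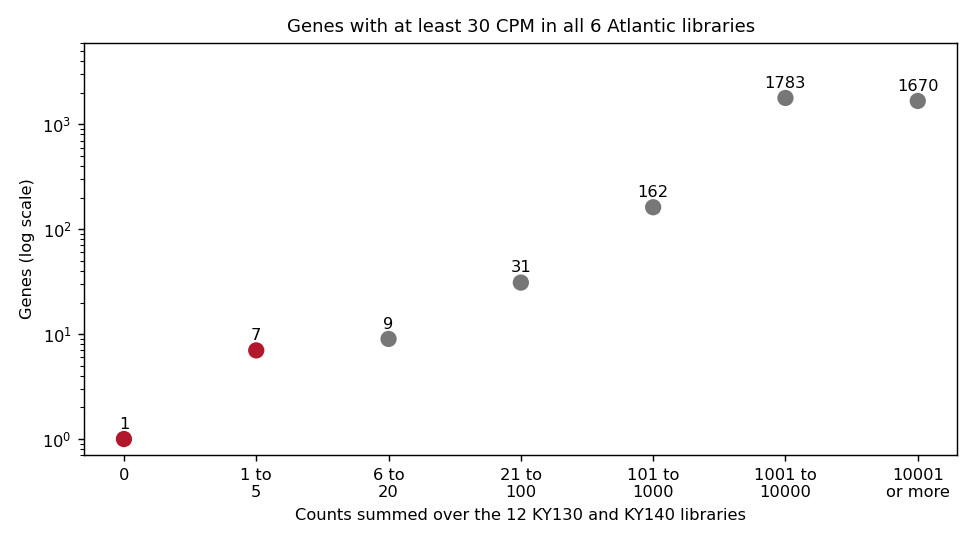
Counts outside Atlantic for the 3663 annotated genes with at least 30 CPM in each Atlantic library. The x axis gives the counts summed over the 12 KY130 and KY140 libraries, and the y axis the number of genes on a log scale. The red points are the 8 genes (1 with no count and 7 with 1 to 5 counts), and the grey points rise from 9 genes at 6 to 20 counts to 1783 and 1670 genes above 1000 counts.

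The thresholds set who belongs to the 8 genes. Just inside the minimum of 30 CPM were Soltu.Atl.05_4G001900, with a lowest value of 31.1 CPM, Soltu.Atl.06_1G001710 with 39.5 CPM and Soltu.Atl.12_1G009210 with 40.7 CPM. Just outside were Soltu.Atl.04_1G019680 with a lowest value of 29.999 CPM and 1 count outside Atlantic, Soltu.Atl.03_1G007600 with 29.96 CPM and none, and Soltu.Atl.11_1G013980 with 29.4 CPM and 5 counts. These 3 genes were kept out by their lowest level and not by their counts outside Atlantic. At the other threshold, Soltu.Atl.02_3G032270 with 4 counts, Soltu.Atl.12_1G009210 with 3 and Soltu.Atl.03_3G017850 with 2 were the last inside. Soltu.Atl.02_3G012760 with 7 counts, Soltu.Atl.06_1G003360 with 10 and Soltu.Atl.03_3G022890 with 11 were the first outside.

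The 8 genes were tested for a response to cold in Atlantic. All 8 passed the filter on low counts, and treated were compared with untreated libraries by edgeR's quasi-likelihood test over all 57775 genes tested. The criteria of the study were used, a Benjamini-Hochberg adjusted p under 0.05 with a |log2FC| of 1 or more. Of the 8 genes, 0 were called by edgeR and 0 by DESeq2. An unadjusted p under 0.05 by edgeR was found for 1 of the 8 genes, against 21.5% of all genes tested. Over all genes tested, 8.1% were called by edgeR (5.79% higher and 2.31% lower) and 11.6% by DESeq2. With 8 genes, a count of 0 is near that background and is not a result about them. The minimum of 30 CPM in every Atlantic library also keeps out genes that fall to or rise from low levels. Among the other 3655 genes that met that minimum, 9.71% were called by edgeR.

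The log2FC of the 8 genes, taken from the edgeR fit with its own scaling of the libraries, ran from −0.41 to 0.52, 5 positive and 3 negative. Their median was 0.12, against −0.07 over all genes tested. The largest was that of Soltu.Atl.02_3G032270, at 0.52 ± 0.23 (standard error) with a 95% interval of 0.0070 to 1.03 and an adjusted p of 0.225 in edgeR. With 1 library left out it ran from 0.34 (without CS-Atlantic replicate 3) to 0.67. Soltu.Atl.03_3G017850, Soltu.Atl.12_1G009210 and Soltu.Atl.03_3G011300 followed at 0.26, 0.23 and 0.22, and edgeR gave them an adjusted p of 0.599, 0.589 and 0.676. With 1 library left out, Soltu.Atl.03_3G017850 ran from 0.11 (without CS-Atlantic replicate 1) and 0.15 (without Atlantic replicate 3) to 0.42 (without CS-Atlantic replicate 2, or without Atlantic replicate 1). Soltu.Atl.12_1G009210 ran from 0.16 (without CS-Atlantic replicate 1) to 0.35 (without CS-Atlantic replicate 3), and Soltu.Atl.03_3G011300 from −0.014 (without CS-Atlantic replicate 1) to 0.39 (without CS-Atlantic replicate 3). Soltu.Atl.06_1G001710 stood at 0.024 ± 0.29 (standard error), for which edgeR gave an adjusted p of 0.978, and had a mean of 67.3 ± 14.4 CPM (SD, n = 3) in Atlantic and 62.8 ± 21.7 CPM in CS-Atlantic. The sign of this log2FC turned in 5 of 13 other settings.

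The lowest log2FC was that of Soltu.Atl.08_3G014060, at −0.41 ± 0.25 (standard error) with a 95% interval of −0.96 to 0.14 and an adjusted p of 0.396 in edgeR. Soltu.Atl.04_2G002550 had −0.35 and Soltu.Atl.05_4G001900 had −0.31, for which edgeR gave an adjusted p of 0.417 and 0.635. These 3 genes had their highest value in Atlantic library 2. Without that library their log2FC was −0.15, −0.23 and −0.0070. The other end of the range with 1 library left out was −0.53 and −0.54 for the first pair, both without Atlantic replicate 3, and −0.59 for Soltu.Atl.05_4G001900 without Atlantic replicate 1. One gene of 8 had groups that did not overlap, while this held for 31.7% of all genes tested and for 43.1% of the 3655 other genes with at least 30 CPM. The 95% intervals of 7 of the 8 genes lay within 1 on the log2 scale in either direction, and that of Soltu.Atl.02_3G032270 reached 1.03. The number of genes with such an interval was 6 with upper quartile scaling, 5 to 7 without 1 library and 0 in the joint fit of 18 libraries, where the bounds ran from −1.49 to 1.53.

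**Figure D3:**
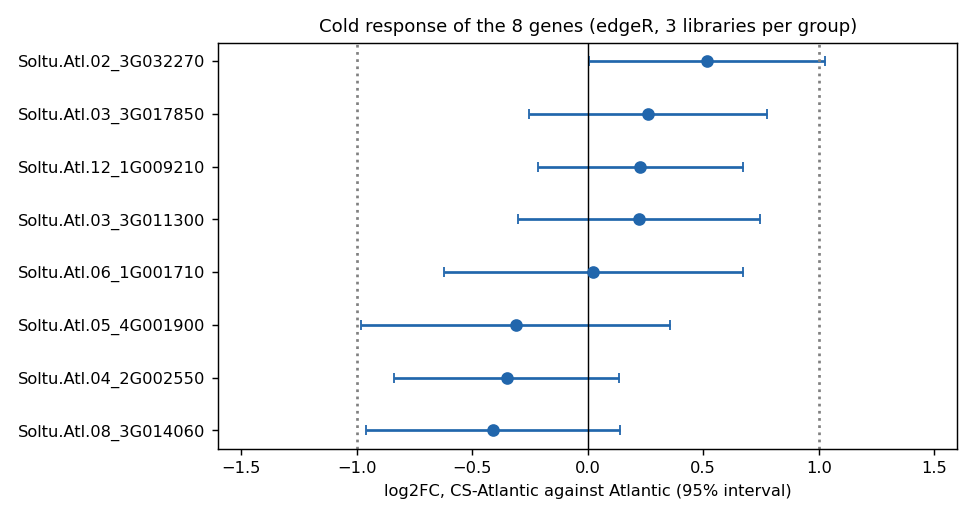
Cold response of the 8 genes in Atlantic. The x axis is the log2FC of CS-Atlantic against Atlantic from edgeR (3 libraries per group), with bars for the 95% interval of each gene and dotted lines at a log2FC of −1 and 1. All 8 estimates lie between −0.41 and 0.52, and the interval of Soltu.Atl.02_3G032270 alone passes a dotted line.

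Of the genes just outside the thresholds, Soltu.Atl.02_3G012760 rose with cold. It had 38.7 ± 6.30 CPM in Atlantic and 232.1 ± 20.8 CPM in CS-Atlantic (SD, n = 3), and its log2FC was 2.70 ± 0.20 (standard error) at an edgeR adjusted p of 8.45e-05. It is kept out of the 8 genes by 2 counts, having 1 count in KY130 and 6 in KY140. The other 5 genes just outside were not called, with log2FC values from −0.18 to 0.61.

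The 8 genes differed in how much they varied between libraries. Over the 6 Atlantic libraries the coefficient of variation was 7.92% in Soltu.Atl.12_1G009210 and 34.9% in Soltu.Atl.05_4G001900, with a median of 25.4% against 21.1% for the 3655 others. Counting error alone gives 2.81 to 4.39% for the 8 genes. By the SD of log2 CPM, Soltu.Atl.05_4G001900 (0.46) varied most, followed by Soltu.Atl.08_3G014060 and Soltu.Atl.06_1G001710 (both 0.41), and Soltu.Atl.12_1G009210 (0.11) and Soltu.Atl.03_3G011300 (0.25) varied least. The highest library was CS-Atlantic library 1 for 4 genes, Atlantic library 2 for 3 genes and CS-Atlantic library 3 for Soltu.Atl.02_3G032270. The lowest was CS-Atlantic library 2 for 3 genes, where the summed level of the 8 genes was also the lowest, at 435.6 CPM against 634.7 CPM in Atlantic library 2.

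By their identifiers the 8 genes were scattered. They carried 7 different chromosome labels, with 03 occurring in Soltu.Atl.03_3G017850 and Soltu.Atl.03_3G011300, and none stood within 10 entries of another in the table. Copy label 3 occurred in 4 of the 8, copy label 1 in 2, and copy labels 2 and 4 in 1 each. Among the 3663 genes with at least 30 CPM, copy label 3 made up 24.0%, copy label 1 18.3%, copy label 2 21.2% and copy label 4 20.7%. Labels 0 and S, which made up 12.9% and 2.95% of them, did not occur. With 8 genes these shares are a description.

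Next to several of the 8 genes, other genes were silent in KY130 but expressed in KY140. Neighbours were taken as the 4 table entries on each side with the same chromosome and copy label, in the order of their gene numbers, which was not checked against coordinates. Of the 64 neighbours, 47 had a mean of at least 1 CPM over the 6 Atlantic libraries. At most 5 counts over 6 libraries were found for 22 of the 47 in KY130 (46.8%), 7 in KY140 (14.9%) and 5 in both (10.6%). Over all 50622 genes with such labels and level the shares were 10.4%, 10.2% and 2.46%. With 10 entries on each side, 50 of 113 neighbours were silent in KY130 (44.2%), 12 in KY140 (10.6%) and 7 in both (6.19%). Neighbours share a place on a chromosome and are not independent of each other, and the windows were chosen after the values were seen.

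Soltu.Atl.08_3G014060 stood at the end of a silent run. The 3 entries before it, Soltu.Atl.08_3G014030, Soltu.Atl.08_3G014040 and Soltu.Atl.08_3G014050, had means of 2.93, 9.45 and 26.3 CPM in Atlantic. They had no count in KY130, and in KY140 only Soltu.Atl.08_3G014030 was counted, 3 times. The entry after it, Soltu.Atl.08_3G014070, had 13.8 CPM in Atlantic, 9.42 CPM in KY130 and 16.7 CPM in KY140, so that the run ended there. Further on, Soltu.Atl.08_3G014090 (28.2 CPM in Atlantic) and Soltu.Atl.08_3G014100 (2.49 CPM) were again silent in KY130, with 1 and 0 counts. In KY140 they had 27.2 and 8.74 CPM. Soltu.Atl.05_4G001900 was followed by 2 silent genes, Soltu.Atl.05_4G001910 with 4.60 CPM and Soltu.Atl.05_4G001920 with 3.85 CPM in Atlantic, both without a count in KY130 and KY140. All 6 of its neighbours at 1 CPM or more were silent in KY130, while 4 of them had counts above the limit in KY140, up to 3.89 CPM.

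In the surroundings of other genes the cultivars differed from each other. All 4 neighbours of Soltu.Atl.06_1G001710 with at least 1 CPM in Atlantic were silent in KY130 and none in KY140, where they summed to 25.6 CPM against 31.7 CPM in Atlantic and 0.0708 CPM in KY130. Around Soltu.Atl.03_3G017850, 4 of 6 neighbours were silent in KY130 and none in KY140. The adjacent Soltu.Atl.03_3G017840 had 41.6 CPM in Atlantic, 0.0576 CPM in KY130 and 112.8 CPM in KY140, beside a gene with 0.0129 CPM in KY140. The 3 neighbours of Soltu.Atl.03_3G011300 summed to 45.7 CPM in Atlantic, 1.06 CPM in KY130 and 75.2 CPM in KY140. Both genes of chromosome label 03 thus stood silent among genes that KY140 expressed above the Atlantic level in sum.

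Around Soltu.Atl.02_3G032270 and Soltu.Atl.12_1G009210, 0 of 6 and 0 of 8 neighbours were silent in KY130 or in KY140. For Soltu.Atl.02_3G032270 the neighbours summed to 156.8 CPM in Atlantic, 43.3 CPM in KY130 and 19.999 CPM in KY140. For Soltu.Atl.12_1G009210 the sums were 272.1, 31.8 and 97.2 CPM. Among entries with at least 1 CPM in Atlantic, both genes were the only silent ones in their windows. Soltu.Atl.12_1G009200, next to Soltu.Atl.12_1G009210, was little above the limit in KY130, with 9 counts (0.130 CPM) against 9.70 CPM in Atlantic. Soltu.Atl.04_2G002550 lay between these cases. Of its 7 neighbours 2 were silent in KY130 and 2 others in KY140, among them the adjacent Soltu.Atl.04_2G002540 with 21.8 CPM in Atlantic, 0.535 CPM in KY130 and no count in KY140, and Soltu.Atl.04_2G002560 on the other side with 19.98, 0.0272 and 20.8 CPM.

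**Figure D4:**
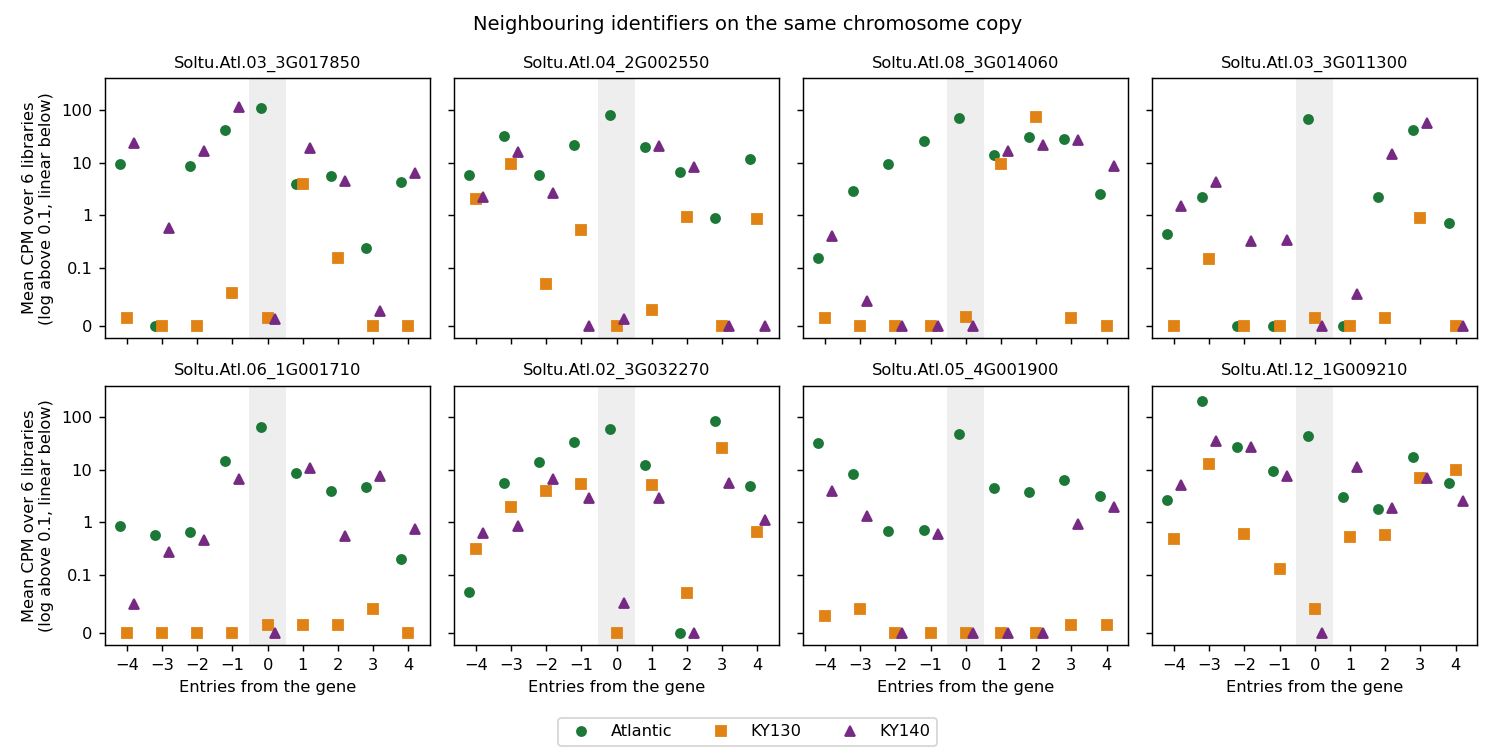
Levels of the 8 genes and of the 4 entries on each side with the same chromosome and copy label. The x axis is the number of table entries from the gene (shaded), and the y axis is the mean CPM over the 6 libraries of Atlantic (circles), KY130 (squares) or KY140 (triangles), on a log scale above 0.1 and linear below. In KY130 all neighbours of Soltu.Atl.06_1G001710 and Soltu.Atl.05_4G001900 lie near 0. Around Soltu.Atl.02_3G032270 and Soltu.Atl.12_1G009210, among genes with at least 1 CPM in Atlantic, the shaded gene alone has at most 5 counts in KY130 or KY140. Soltu.Atl.12_1G009200, next to Soltu.Atl.12_1G009210, is also low in KY130, at 0.130 CPM.

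Some of the neighbours rose with cold. Of 46 neighbours tested in Atlantic, 3 rose and 0 fell by edgeR at an adjusted p under 0.05 with a |log2FC| of 1 or more, against the 8.1% called over all genes, a share close to that background. Soltu.Atl.03_3G011350 had a log2FC of −0.85 at an edgeR adjusted p of 0.0280, short of the fold criterion. Soltu.Atl.08_3G014070, next to Soltu.Atl.08_3G014060, rose from a mean of 5.62 CPM to 22.03 CPM, and its log2FC was 2.09 ± 0.36 (standard error) at an edgeR adjusted p of 0.00617. Soltu.Atl.04_2G002540 and Soltu.Atl.04_2G002560, on either side of Soltu.Atl.04_2G002550, rose by 1.71 and 1.18 on the log2 scale, at an edgeR adjusted p of 0.0147 and 0.0212, while Soltu.Atl.04_2G002550 itself had −0.35. The differences between a gene and its neighbours were not tested.

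The same thresholds were also applied with the cultivars exchanged. Of 3774 annotated genes with at least 30 CPM in each of the 6 KY130 libraries, 1 (0.0265%) had at most 5 counts over the libraries of Atlantic and KY140. Of 3393 in KY140, 2 (0.0589%) had at most 5 counts over those of Atlantic and KY130. In Atlantic the share was 0.218% (8 of 3663). The annotation is of Atlantic, so that a gene that Atlantic lacks has no such identifier, and the counts of the cultivars are therefore given side by side without a comparison.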

How the data were processed

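Poly(A) RNA of leaves was sequenced in 18 libraries of 3 cultivars. The deposited values are raw counts per gene from the authors' pipeline, whose aligner, counter and genome build the sources used here do not name. One more table, which lists each identifier as its own name, was left out. Library columns were matched to groups by the labels. The 8 genes, the lists and the tests were chosen with earlier results of these data known. CPM values are counts divided by library totals. Cold was tested in the 6 Atlantic libraries with edgeR 4.0.16 (limma 3.58.1, R 4.3.3): filterByExpr with a minimum count of 10, TMM scaling (factors 0.941 to 1.07), quasi-likelihood test, Benjamini-Hochberg adjustment over 57775 genes. Standard errors are the log2FC divided by the square root of F. The fit was also run on counts simulated from its own model, which cannot show whether that model holds for these libraries. Alternatives were DESeq2 1.42.0, other scalings and filters, a joint fit of 18 libraries, a replicate block, no fold threshold, and leaving out each library. Named were all 8 genes, the genes nearest the thresholds, and neighbours chosen after their values were seen. No library pair was identical. Counts of genes in near-identical copies are uncertain, since the handling of shared reads is not given in the sources used here.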

Additional observations from a re-analysis of the deposited data

How the results depend on the processing

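The number of genes expressed in Atlantic alone depends on the thresholds: it was 50 with a minimum of 10 CPM, 0 with a minimum of 100 CPM, 1 with a maximum of 0 counts outside Atlantic and 17 with a maximum of 20 counts. With TMM-adjusted library sizes it was 8, and 8 to 10 when 1 Atlantic library was left out. None of the 8 genes was called in any of the 14 alternatives for the cold response, DESeq2 included. With 8 genes, a count of 0 in these settings is not a result about them. Over all genes, 4679 of 57775 tested were called by edgeR and 962 of 74058 in the joint fit of 18 libraries. Without 1 library, 2715 to 3449 were called, with 61837 to 62287 tested. The lowest of these were 2715 without CS-Atlantic replicate 2 and 2722 without CS-Atlantic replicate 1, and the causes were not tested. For Soltu.Atl.06_1G001710 the log2FC of 0.024 turned to −0.022 with upper quartile scaling and to −0.030 in the joint fit, and ranged from −0.22 to 0.27 without 1 library. For Soltu.Atl.03_3G011300 it ranged from −0.014 (without CS-Atlantic replicate 1) to 0.39. With the replicate number as a replicate block 3389 genes were called, none of the 8 among them, and the log2FC of Soltu.Atl.06_1G001710 was −0.019. The replicate numbers are not stated to mark pairs, and same-numbered libraries deviated from their group means with correlations across genes of −0.064 to 0.031. Without the fold criterion 5035 genes passed the adjusted p, none of the 8 among them.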

Other observations

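The table also holds 24264 genes that carry only a number. Of 144 such genes with at least 30 CPM in each Atlantic library, 10 had at most 5 counts in the KY130 and KY140 libraries, a share of 6.94% against 0.218% of the annotated genes. All 10 had no count in any of the 12 libraries, whereas 7 of the 8 annotated genes had at least 1. Their mean levels in Atlantic were 46.8 to 102.9 CPM (median 60.4 CPM). With the cultivars exchanged, the numbered genes numbered 5 of 117 in KY130 and 2 of 79 in KY140. How these genes were defined is not given in the sources used here.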
